A study of Homo sapiens with 10 samples.

Results

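The ATP-binding cassette (ABC) transporter genes are described here in lung adenocarcinoma cells with and without the DNA repair gene APEX1. Members were all gene symbols in both deposited count tables made of ABCA, ABCB, ABCC, ABCD, ABCE, ABCF or ABCG and a number only. There were 45 members among 28281 symbols. A further symbol that matched, ABCC13, was left out because the annotation lists it as a transcribed pseudogene, and it had 0 counts in every library. ABC proteins bind and hydrolyse ATP with a pair of nucleotide-binding domains, and most use that energy to move a substrate across a membrane. ABCB, ABCC and ABCG members export drugs, bile acids and conjugates of glutathione or glucuronic acid, ABCA and several ABCG members move sterols and phospholipids, and ABCD members serve peroxisomes and lysosomes. ABCE1 and the ABCF proteins have no membrane domain and act on ribosomes instead. ABCC2 and ABCC3 encode the conjugate pumps MRP2 and MRP3, known from the apical and basolateral membranes of liver, gut and kidney epithelia and also found in lung cancer cells.

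RNA-seq of poly(A) RNA was done in A549 and H1944, both human lung adenocarcinoma cell lines, with wild-type (WT) or knocked-out (KO) APEX1. APEX1 encodes APE1, an endonuclease of base excision repair that also acts on the redox state of transcription factors, and the study's title links it to G-quadruplexes, 4-stranded DNA structures formed by runs of G. A549, grown in DMEM, gave 3 WT and 3 KO libraries, and H1944, grown in RPMI1640, gave 2 WT and 2 KO libraries. The labels name no other treatment and do not say how the knockout was made, whether a KO line was 1 clone, or whether libraries came from separate cultures, so p-values cover library-to-library spread alone, and that spread could be technical. The A549 KO columns are named 65, 16 and 66 with no genotype, and were taken as KO because the labels leave no other group for them.

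Totals were 18314224 to 30219850 counts per library, and levels below are counts scaled to library size (CPM) by TMM over all 10 libraries. Adjusted p-values are from the quasi-likelihood test of edgeR, with Benjamini-Hochberg adjustment over all genes tested. APEX1 itself had 239 and 238 CPM in H1944 WT and 85.8 and 86.3 CPM in H1944 KO (log2 fold change -1.48, SE 0.0375, adjusted p = 6.43e-19). In A549 it had 164, 264 and 247 CPM in WT 1, 2 and 3 and 58.3, 64.4 and 109 CPM in KO 16, 65 and 66 (log2 fold change -1.51, SE 0.299, adjusted p = 0.521). The KO libraries of both lines lay below all WT libraries. The A549 libraries fell into 2 sets that crossed genotype: ribosomal RNA genes took 0.284% and 0.337% of counts in WT 1 and KO 65, and 6.45% to 14.2% in WT 2, WT 3, KO 16 and KO 66. A549 results are therefore also given within these sets. The epithelial markers KRT8 and KRT18 were at 3360 CPM or more in every library, while the lung markers NKX2-1 and SFTPB were at 0.236 CPM or less. The third lung marker, NAPSA, had 10.4 and 7.46 CPM in H1944 WT and 0.902 and 0.793 CPM in KO, and the lung list summed to 7.46 to 10.5 CPM and 0.793 to 1.01 CPM there. In H1944, EPCAM had 70.1 and 67.3 CPM in WT and 1.11 and 0.76 CPM in KO, and CDH1 had 207 and 206 and 7.71 and 8.1 CPM. In A549 both genes were higher on average in KO, without a call. EPCAM had 14.8, 29.9 and 25.4 CPM in WT and 73.2, 36.9 and 81.6 CPM in KO 16, 65 and 66 (adjusted p = 0.649). CDH1 had means of 45.9 CPM in A549 WT and 73.6 CPM in KO (adjusted p = 0.88). All 5 epithelial markers were at 1 CPM or more in H1944 WT and 3 in KO, and their sum was 9570 to 9737 CPM in WT and 17246 to 17635 CPM in KO. The leukocyte markers PTPRC and CD3E were at 0.42 CPM or less, and with CD68 the list summed to 26.4 to 28.3 CPM in H1944 WT and 51.6 to 53.6 CPM in KO. Fibroblast markers summed to 10.1 to 11.4 and 8.3 to 10.2 CPM in H1944 WT and KO, which overlapped. Within that sum COL1A1 fell (log2 fold change -0.78, adjusted p = 7e-05) and COL3A1 rose (3.62, adjusted p = 1.07e-06). In A549 the sums were 5.31 to 8.11 CPM in WT and 10.7 to 17.0 CPM in KO. Marker differences between genotypes, which were not the same in the 2 lines, stood beside every knockout result below. Their part in the ABC results was not tested. In bulk RNA, fewer cells of a type and less RNA per cell cannot be told apart.

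ABCC2 had the highest level of the family in H1944, and in A549 WT it shared the top levels with ABCC3, ABCF2 and ABCC1. In A549 WT, 30 of 45 members had a mean of at least 1 CPM, 6 had at least 100 CPM and 2 had 0 counts in all 3 libraries. In H1944 WT these numbers were 31, 5 and 6. ABCC2 (chr10:99782640-99852594) had 534, 299.6 and 299 CPM in A549 WT 1, 2 and 3, and 699 and 692 CPM in H1944 WT. ABCC3 (chr17:50634881-50692253) had 516, 375 and 379 CPM in A549 WT and 297 and 283 CPM in H1944 WT. Together these genes held 37.0% of all ABC member CPM in A549 WT and 46.1% in H1944 WT.

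Shares of member CPM are not scaled to gene length. Otherwise levels were compared between genes only as CPM per kilobase of exon. On that scale the means in A549 WT ran from ABCC2 at 48.2 and ABCC3 at 44 to ABCF2 at 38.7, ABCC1 at 33 and ABCF1 at 19.8. ABCF2 and ABCF1 act on ribosomes, and ABCC1 encodes the glutathione-conjugate pump MRP1. In H1944 WT the order was ABCC2 at 88.7, ABCE1 at 31.3, ABCC3 at 30.2, ABCF2 at 23.9 and ABCD3 at 22.6. ABCE1 splits ribosomes for recycling, and ABCD3 encodes a peroxisomal membrane transporter. ABCC2 stood far above the next member in both H1944 WT libraries. In A549 the order of the means hides a reversal between library sets: ABCC2 at 68.2 and ABCC3 at 53.7 led in WT 1, with ABCF2 at 32.3 and ABCC1 at 19.1. In WT 2 the order was ABCF2 at 41.4, ABCC1 at 39.7, ABCC3 at 39 and ABCC2 at 38.2, and WT 3 had the same order. ABCF1 was at 1.52 in WT 1 and at 28.7 and 29.1 in WT 2 and WT 3, so its mean describes neither set. In H1944 KO, ABCF2 was second at 60.8, just below ABCC2 at 68.2.

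The promoters of members that moved in opposite directions in H1944 KO are shown because the study's title names G-quadruplexes. Sequences are from RefSeq, assembly GRCh38.p14, and are the 250 bases before an annotated start, 5′ to 3′ on the gene's strand. RefSeq starts were matched for 35 of 45 members, with 53 promoters. The capitals mark a quadruplex pattern, 4 runs of GGG with 1 to 7 bases between them on either strand, where it occurs in ABCA1 (chr9:104928156-104928405, minus strand), ABCB8 (chr7:151028200-151028449, plus strand), ABCB10 (chr1:229558708-229558957, minus strand) and ABCG2 (chr4:88158640-88158889, minus strand). In ABCB1 (chr7:87600885-87601134, minus strand) they mark the AP-1 site TGANTCA, which reads the same on both strands. ABCF2 (chr7:151227206-151227455, minus strand), which rose, held neither pattern.
ABCA1: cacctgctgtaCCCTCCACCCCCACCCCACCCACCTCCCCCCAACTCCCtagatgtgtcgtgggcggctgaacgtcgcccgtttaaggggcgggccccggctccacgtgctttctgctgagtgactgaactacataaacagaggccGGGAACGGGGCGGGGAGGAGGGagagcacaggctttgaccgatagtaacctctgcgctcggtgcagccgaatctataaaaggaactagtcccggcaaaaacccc
ABCB8: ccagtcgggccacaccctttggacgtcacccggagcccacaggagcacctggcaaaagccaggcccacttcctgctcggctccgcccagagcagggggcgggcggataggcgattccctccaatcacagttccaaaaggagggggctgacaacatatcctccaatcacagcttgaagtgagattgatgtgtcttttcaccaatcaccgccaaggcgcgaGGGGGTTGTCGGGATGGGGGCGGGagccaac
ABCF2: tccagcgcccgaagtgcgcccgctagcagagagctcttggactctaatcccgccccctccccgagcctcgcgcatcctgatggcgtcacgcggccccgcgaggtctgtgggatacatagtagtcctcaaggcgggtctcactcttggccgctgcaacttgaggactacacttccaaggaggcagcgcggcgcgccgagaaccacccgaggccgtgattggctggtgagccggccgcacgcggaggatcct
ABCB10: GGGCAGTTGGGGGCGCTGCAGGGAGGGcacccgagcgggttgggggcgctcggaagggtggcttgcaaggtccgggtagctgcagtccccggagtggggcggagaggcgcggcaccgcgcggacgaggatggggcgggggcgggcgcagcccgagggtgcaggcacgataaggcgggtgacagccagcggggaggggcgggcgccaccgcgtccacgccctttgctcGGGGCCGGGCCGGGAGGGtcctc
ABCG2: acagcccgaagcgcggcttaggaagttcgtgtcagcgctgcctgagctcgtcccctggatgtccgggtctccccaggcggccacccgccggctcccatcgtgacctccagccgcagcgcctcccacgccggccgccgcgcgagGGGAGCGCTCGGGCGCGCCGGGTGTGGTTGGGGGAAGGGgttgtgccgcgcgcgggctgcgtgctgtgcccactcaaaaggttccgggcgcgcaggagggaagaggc
ABCB1: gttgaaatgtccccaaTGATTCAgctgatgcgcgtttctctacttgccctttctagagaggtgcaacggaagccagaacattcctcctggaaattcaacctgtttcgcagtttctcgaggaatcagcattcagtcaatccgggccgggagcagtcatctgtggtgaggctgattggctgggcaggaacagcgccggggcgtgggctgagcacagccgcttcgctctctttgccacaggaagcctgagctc
ABCA1, ABCB8 and ABCF2 rose in H1944 KO and ABCB10, ABCG2 and ABCB1 fell, with values below. The quadruplex pattern was in 24.5% of member promoters and in 23.3% of 35116 promoters of all genes. Of the 10 members that held it, 2 rose, 4 fell, 3 did not pass and 1 was not tested in H1944. Of the 25 matched members without it, 4 rose, 10 fell, 3 did not pass and 8 were not tested. The antioxidant response element core TGACNNNGC, searched on both strands, was in 17% of member promoters and 10.9% of all, and the AP-1 site was in 9.43% and 6.57%. A match in letters is a description of the window, not a binding site.

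In H1944, APEX1 knockout came with changes across most of the expressed family, in both directions. Of 45 members, 32 passed the filter on low counts and were tested, 9 rose and 16 fell (adjusted p under 0.05), and 7 did not pass. Among all 16626 genes tested, 67.1% were called, 33.2% higher and 33.9% lower, so a call as such was common in this line. The members' median log2 fold change was -0.23, against -0.01 for all genes. At a change of at least 2-fold, 3 members rose and 8 fell, which is 34.4% of those tested, beside 21.4% of all genes. When the spread was estimated in 1 fit of all 10 libraries, 2 members rose and 5 fell, 20% of 35 tested, beside 14.3% of 17677 genes. These 7 were ABCF2, ABCB8, ABCA4, ABCA5, ABCA12, ABCA13 and ABCB9, and ABCA1, ABCB1, ABCG2, ABCC2, ABCC3 and ABCD3 were among the 18 members whose call was lost in that fit.

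**Figure D1:**
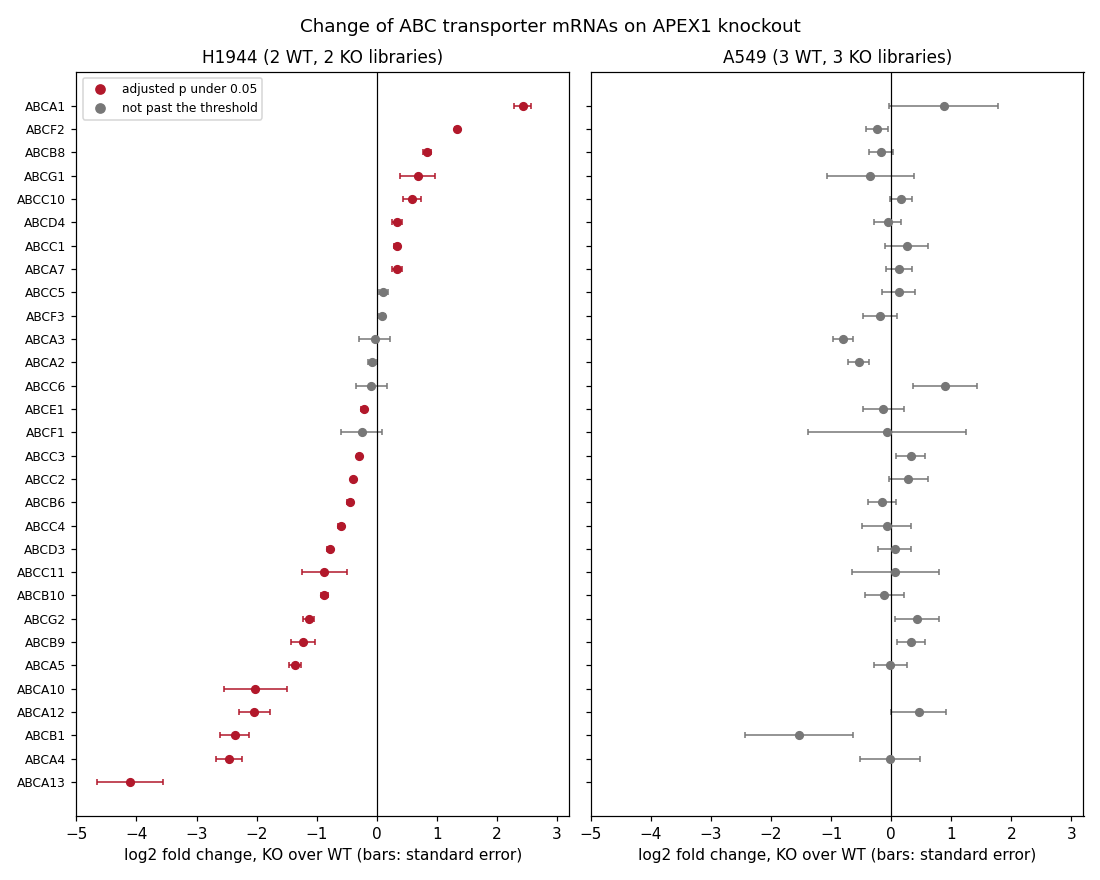
Log2 fold change of KO over WT for 30 of the 32 ABC members tested in H1944, with bars of 1 standard error, in H1944 on the left and, for the 28 of these also tested there, in A549 on the right (both linear axes). Red points passed an adjusted p under 0.05; the H1944 changes run from -4.10 (ABCA13) to 2.43 (ABCA1), and no A549 point is red.

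Among the 11 drug and conjugate efflux genes, 10 were tested in H1944, and 2 rose, 6 fell and 2 did not pass. ABCC2 had 699 and 692 CPM in WT and 531 and 537 CPM in KO, a 1.31-fold lower level (log2 fold change -0.39, SE 0.0308, adjusted p = 2.8e-10). ABCC3 had 297 and 283 CPM in WT and 238 and 239 CPM in KO (log2 fold change -0.29, SE 0.0353, adjusted p = 2.39e-07). Both KO libraries lay below both WT libraries for each gene, and the summed share of ABCC2 and ABCC3 in member CPM was 39.3% in H1944 KO against 46.1% in WT. ABCB1 (chr7:87503017-87713295), which encodes the multidrug pump P-glycoprotein, had 4.95 and 6.39 CPM in WT and 1.11 and 1.09 CPM in KO, or 5.16-fold lower (log2 fold change -2.37, SE 0.243, adjusted p = 1.96e-08). ABCG2 (chr4:88090264-88231626), the breast cancer resistance protein, had 25.3 and 27.5 CPM in WT and 12.4 and 11.9 CPM in KO, 2.19-fold lower (log2 fold change -1.13, SE 0.0894, adjusted p = 2.81e-10). ABCC4, which exports cyclic nucleotides and prostaglandins, had 77.4 and 83.7 CPM in WT and 51.8 and 55.1 CPM in KO (log2 fold change -0.60, SE 0.0522, adjusted p = 1.35e-09). Thus the libraries did not overlap for any of these exporters, and the low ABCB1 and the high ABCC2 fell by very different factors. With 2 libraries against 2, a lack of overlap is easily reached, and its share over all genes was not counted in H1944. Here and below it is therefore only a description. ABCC11, a lipophilic anion pump at about 1 CPM, had 1.65 and 1.12 CPM in WT and 0.764 and 0.76 CPM in KO (log2 fold change -0.87, SE 0.37, adjusted p = 0.0431).

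The efflux genes that rose in H1944 were ABCC1 and ABCC10. ABCC1 had 113 and 124 CPM in WT and 142 and 158 CPM in KO (log2 fold change 0.34, SE 0.0571, adjusted p = 0.000252). ABCC10, a broad drug pump also called MRP7, had 5.95 and 5.83 CPM in WT and 8.37 and 9.39 CPM in KO (log2 fold change 0.58, SE 0.148, adjusted p = 0.00159). Both KO libraries were above both WT libraries for each. ABCC5, which exports nucleotide analogs, had 27.3 and 28.2 CPM in WT and 29.3 and 30.9 CPM in KO. Its libraries did not overlap either, yet it did not pass (adjusted p = 0.197). ABCC6 had 2.3 and 2.33 and 2.5 and 1.88 CPM (adjusted p = 0.778), and its value is uncertain because its pseudogenes ABCC6P1 and ABCC6P2 are near copies.

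Among the 16 sterol and phospholipid genes, 10 were tested in H1944, and 3 rose, 5 fell and 2 did not pass. ABCA1 (chr9:104781006-104928155), the cholesterol efflux transporter that loads apolipoprotein A-I, had 3.04 and 4.34 CPM in WT and 19.2 and 20.7 CPM in KO. This 5.39-fold rise was the largest of the 32 members tested (log2 fold change 2.43, SE 0.141, adjusted p = 1.67e-12). ABCG1, which passes cholesterol on to HDL particles, had 1.17 and 1.77 CPM in WT and 2.46 and 2.28 CPM in KO (log2 fold change 0.68, SE 0.29, adjusted p = 0.0434). ABCA7, a close relative of ABCA1, had 25.4 and 20.9 CPM in WT and 30.2 and 28.6 CPM in KO (log2 fold change 0.33, SE 0.0862, adjusted p = 0.00189). For ABCA1, ABCG1 and ABCA7 both KO libraries were above both WT libraries, though ABCG1 stayed under 3 CPM. The calls of ABCC11 and ABCG1 were lost with the replicate number as a block (adjusted p = 0.0661 and 0.0503), with DESeq2, and without H1944 WT 1, KO 1 or KO 2.

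The members of this group that fell were ABCA4, ABCA12, ABCA5, ABCA13 and ABCA10. ABCA4 (chr1:93992834-94121148), the retinoid flippase of photoreceptors, had 8.42 and 9.14 CPM in WT and 1.15 and 2.05 CPM in KO, 5.5-fold lower (log2 fold change -2.46, SE 0.223, adjusted p = 3.45e-09). ABCA12, the lipid transporter of the skin barrier, had 4.17 and 4.29 CPM in WT and 1.04 and 1.02 CPM in KO, 4.11-fold lower (log2 fold change -2.04, SE 0.256, adjusted p = 4.14e-07). ABCA5, a lysosomal member, had 23.2 and 26.5 CPM in WT and 9.2 and 10.2 CPM in KO (log2 fold change -1.36, SE 0.101, adjusted p = 1.01e-10). The WT and KO libraries did not overlap for these 3 genes. ABCA13 went from 2 and 1.63 CPM to 0.174 and 0.033 CPM (log2 fold change -4.10, SE 0.544, adjusted p = 9.01e-07; -5.59 without KO 1 and -3.36 without KO 2) and ABCA10 from 0.781 and 1.03 CPM to 0.174 and 0.264 CPM (adjusted p = 0.00192), both near or below 1 CPM. ABCA3, the surfactant lipid pump of lung lamellar bodies, had 2.52 and 2.05 CPM in WT and 2.08 and 2.41 CPM in KO, with overlapping libraries (adjusted p = 0.916). ABCA2, a lysosomal lipid transporter, had 50.4 and 41.4 and 43.6 and 44.5 CPM (adjusted p = 0.412).

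**Figure D2:**
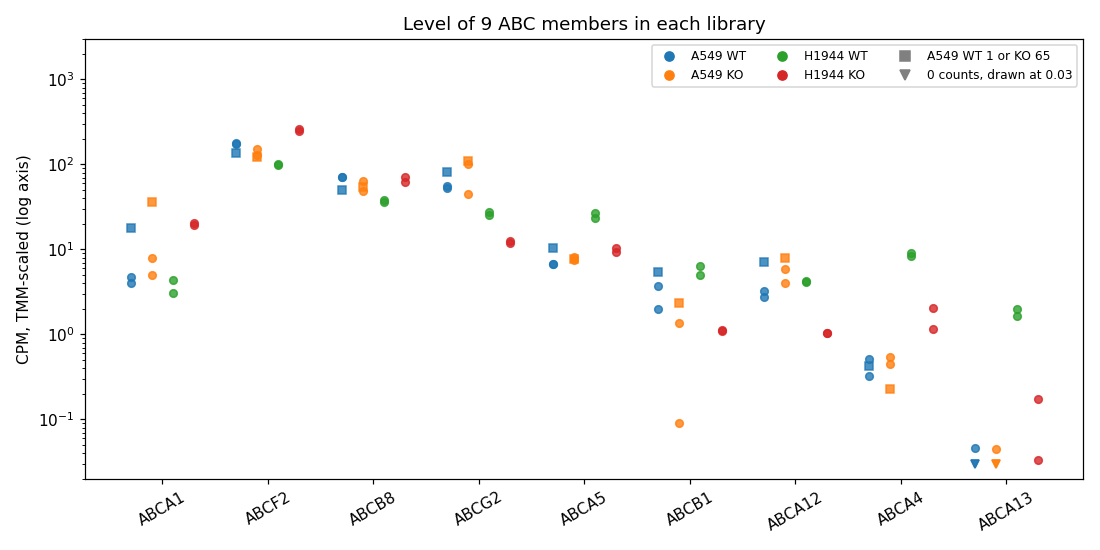
CPM (TMM-scaled, log axis) of 9 ABC members in each of the 10 libraries, coloured by line and genotype, with squares for A549 WT 1 and KO 65 and triangles for 0 counts drawn at a fixed low value. ABCA1 is at 3.04 and 4.34 CPM in H1944 WT and 19.2 and 20.7 CPM in H1944 KO, whereas the A549 genotypes overlap and the squares stand highest.

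Among the mitochondrial members, changes in H1944 went both ways. ABCB8, an inner membrane transporter, had 36.5 and 38.3 CPM in WT and 71.5 and 62.8 CPM in KO (log2 fold change 0.84, SE 0.064, adjusted p = 2.99e-10). ABCB10, which supports haem synthesis, had 56.5 and 56.9 CPM in WT and 30.9 and 31.3 CPM in KO (log2 fold change -0.88, SE 0.0585, adjusted p = 1.64e-11). ABCB6, linked to porphyrin transport, had 74 and 73.5 CPM in WT and 55.3 and 54.2 CPM in KO (log2 fold change -0.44, SE 0.0482, adjusted p = 5.06e-08). ABCB8 thus stood apart upwards and ABCB10 and ABCB6 downwards, with no overlap of WT and KO libraries.

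Peroxisomal and lysosomal members were likewise split. ABCD3, also called PMP70 and used for branched-chain and bile acid precursors, had 168 and 174 CPM in WT and 98.2 and 103 CPM in KO, 1.72-fold lower (log2 fold change -0.78, SE 0.0399, adjusted p = 1.59e-13). ABCD4, which releases vitamin B12 from lysosomes, had 17.7 and 19.1 CPM in WT and 22.5 and 24.3 CPM in KO (log2 fold change 0.34, SE 0.0858, adjusted p = 0.00155). ABCB9, the lysosomal peptide transporter, had 5.82 and 6.02 CPM in WT and 2.22 and 2.84 CPM in KO (log2 fold change -1.23, SE 0.202, adjusted p = 1.56e-05). ABCD4 was thus higher in KO and ABCD3 and ABCB9 lower, and no WT library overlapped a KO library for these 3 genes.

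Among the 4 members that act on ribosomes, 1 rose, 1 fell and 2 did not pass in H1944. ABCF2 (chr7:151211484-151227205) had 99.5 and 100.3 CPM in WT and 259 and 249 CPM in KO, 2.53-fold higher (log2 fold change 1.34, SE 0.0383, adjusted p = 5.91e-18). Its adjusted p was the smallest of any member. The readthrough gene ABCF2-H2BE1, which overlaps it, had means of 80.5 and 197 CPM, and since strand and overlap settings are not given in the sources used here, reads of the 2 genes cannot be told apart. ABCE1 had 190.3 and 202 CPM in WT and 165 and 174 CPM in KO (log2 fold change -0.22, SE 0.0401, adjusted p = 5.28e-05). ABCF3 had 43.7 and 46.2 CPM in WT and 48.8 and 46.9 CPM in KO, without overlap, and did not pass (adjusted p = 0.224).

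The 13 members not tested in H1944 were ABCA6, ABCA8, ABCA9, ABCB4, ABCB5, ABCB11, ABCC8, ABCC9, ABCC12, ABCD2, ABCG4, ABCG5 and ABCG8. They include the bile salt pump ABCB11, the sulfonylurea receptors ABCC8 and ABCC9, and the sterol pair ABCG5 and ABCG8. ABCB4, the bile phospholipid flippase next to ABCB1, had 3 and 13 counts in WT and 0 and 0 counts in KO. Against a floor of 3 counts per library its KO level was at least 3.62-fold lower, a bound that was 1.28 without WT 2 and 5.97 without WT 1.

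In A549 no member passed the test. Of 32 members tested, edgeR called 0, beside 0.00633% of 15806 genes, and 2 members (6.25%) had an unadjusted p under 0.05, beside 5.66% of all genes. DESeq2 called 1 member, ABCA3 (adjusted p = 0.00197), which is 3.12% of members beside 0.791% of all genes. With limma-voom 0 members were called, beside 0.00633% of all genes. The WT and KO libraries did not overlap for 2 members, 6.25% of those tested, beside 10.7% of all genes (5.6% higher and 5.08% lower in KO), and both of these were lower in KO. ABCA3 (chr16:2275881-2340728) had 42.6, 49.8 and 49.4 CPM in WT 1, 2 and 3 and 25.1, 27.8 and 26.7 CPM in KO 16, 65 and 66 (log2 fold change -0.80, SE 0.161, p = 0.00163 and adjusted p = 0.521 with edgeR; exact permutation p = 0.1, the smallest that 3 against 3 can give). ABCA2 had 104, 109 and 108 CPM in WT and 61.9, 85.2 and 70.1 CPM in KO (log2 fold change -0.54, SE 0.174, adjusted p = 0.766 with edgeR). Each KO library was lower than the WT libraries of its own set for both genes: the log2 differences of KO 16, KO 65 and KO 66 were -0.97, -0.61 and -0.88 for ABCA3 and -0.80, -0.29 and -0.63 for ABCA2.

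Many members in A549 differed more between library sets than between genotypes, though on scales that were not the same. The difference between sets was larger than that between genotypes for 21 of 32 members, and it reached 2-fold for 4 members against 1 for genotype. These counts are only a description, because their share over all genes was not counted. Set differences came from mean CPM with a small constant added, which shrinks them at low levels. Genotype differences came from the edgeR fit. ABCB1, at -0.94 between sets, lay just short of 2-fold on the set scale. ABCA1 had 17.8, 4.67 and 4.01 CPM in WT 1, 2 and 3 and 7.88, 36.2 and 5.01 CPM in KO 16, 65 and 66. The high libraries were WT 1 and KO 65, and the log2 difference between genotypes was 0.87 with all libraries and -0.43 without KO 65. ABCC2 had 474, 562 and 329.9 CPM in KO 16, 65 and 66 (log2 fold change 0.29, adjusted p = 0.995), and ABCC3 had 443, 658 and 469.7 CPM (log2 fold change 0.32, adjusted p = 0.995). Beside the WT values above, both genes overlapped between genotypes and were highest in KO 65. Within sets, the log2 differences of KO 16, KO 65 and KO 66 were 0.66, 0.07 and 0.14 for ABCC2 and 0.23, 0.35 and 0.32 for ABCC3, above 0 in each. ABCB1 had 5.44, 2.01 and 3.73 CPM in WT and 1.37, 2.37 and 0.0895 CPM in KO, with overlap (log2 fold change -1.53, adjusted p = 0.995), and KO 66 held only 2 counts of it. ABCG2 had 81.4, 53.4 and 56.2 CPM in WT and 99.7, 108 and 45.1 CPM in KO (adjusted p = 0.995).

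The change of each member was also compared between the lines in 1 fit of all 10 libraries. This comparison shares its libraries with the 2 before it. Of 35 members tested, 4 had a higher change in A549 and 1 a lower one, beside 4.1% and 2.85% of 17677 genes (6.95% in all). All 5 differed by at least 2-fold, which is 14.3% of members tested, beside 6.66% of all genes. The values side by side, A549 then H1944, were -0.23 and 1.34 for ABCF2 (difference -1.60, adjusted p = 0.00494). They were 0.46 and -2.04 for ABCA12 (difference 2.49, adjusted p = 0.0482), and -0.02 and -2.46 for ABCA4 (difference 2.41, adjusted p = 0.044). ABCB9 had 0.33 and -1.23 (difference 1.53, adjusted p = 0.0332) and ABCA5 had -0.01 and -1.36 (difference 1.33, adjusted p = 0.0428). In all 5 the A549 value was near 0 or under 0.5 in size and the H1944 value was past 1. ABCF2 stayed called whichever library was left out. The other 4 calls were lost without A549 WT 2, A549 WT 3 or any 1 of the 4 H1944 libraries, and some of them without A549 KO 16 (ABCA4, ABCA12, ABCA5), KO 65 (ABCA12, ABCB9, ABCA5) or KO 66 (ABCA4). For ABCC2 the difference was 0.66 (adjusted p = 0.408) and for ABCC3 0.60 (adjusted p = 0.294), so a difference between lines was not shown for either in that fit. With the library set as a term, ABCC3 was called and ABCC2 was not.

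The WT lines differed in many members. Of 34 members tested, 10 were higher in A549 WT and 9 were lower (55.9%), beside 41.2% of 16857 genes, 20% higher and 21.2% lower. Line, medium and library batch cannot be told apart here. ABCA3 had 42.6, 49.8 and 49.4 CPM in A549 WT and 2.52 and 2.05 CPM in H1944 WT, 20.6-fold higher in A549 (log2 fold change 4.36, SE 0.203, adjusted p = 0.00062). ABCA4 was the reverse, at 0.429, 0.32 and 0.519 CPM in A549 WT and 8.42 and 9.14 CPM in H1944 WT (log2 fold change -4.36, SE 0.266, adjusted p = 0.000873). ABCC8, the sulfonylurea receptor of pancreatic beta cells, had 1.05, 1.24 and 1.42 CPM in A549 WT and 0 counts in both H1944 WT libraries, at least 9.14-fold higher against 3 counts per library (adjusted p = 0.00424). These genes had no overlap between lines. Other members higher in A549 WT included ABCA2 (1.22), ABCC10 (1.22), ABCG1 (1.24) and ABCG2 (1.27), as log2 differences. Members lower there included ABCA5 (-1.64), ABCD3 (-1.50) and ABCB10 (-0.77). ABCC2 (-0.88, adjusted p = 0.0762) and ABCC3 (0.54, adjusted p = 0.089) did not pass here, and both were called with DESeq2, without A549 WT 1 and with A549 WT 1 as the only A549 WT library. The number of members called was 4 without H1944 WT 2 (beside 8.81% of all genes), 5 without H1944 WT 1 (9.42%), 10 without A549 WT 2 or WT 3 (25.5% and 25.6%) and 31 without A549 WT 1 (83.3%).

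**Figure D3:**
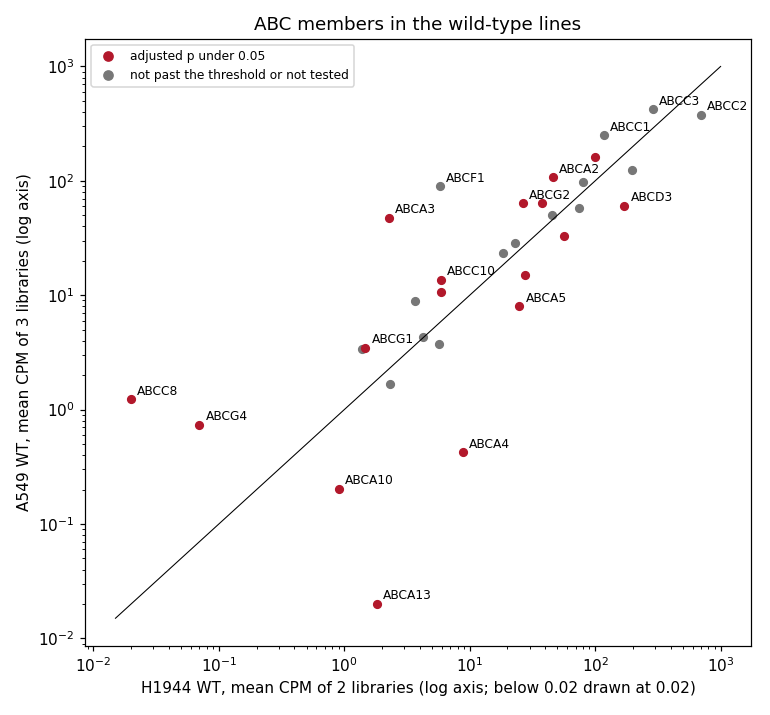
Mean CPM (TMM-scaled, both axes log) of ABC members in A549 WT (3 libraries, vertical) against H1944 WT (2 libraries, horizontal), with a line of equal level and values below 0.02 drawn at 0.02. Red points passed an adjusted p under 0.05: ABCA3 and ABCC8 stand above the line and ABCA4 and ABCA13 below it, while ABCF1 is far off the line without a call.

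ABCF1, a translation factor of the major histocompatibility region (chr6:30571442-30591522), had counts that followed library set rather than genotype or line. A549 WT 1, 2 and 3 had 144, 2836 and 2790 counts, and KO 16, 65 and 66 had 2248, 120 and 3068. H1944 had 144 and 114 counts in WT and 191 and 97 in KO. WT 1 and KO 65 were thus at the H1944 level, and the larger A549 set was 20.3-fold above them. Among 38 other genes within 1 Mb of ABCF1, 29 (76.3%) were over 4-fold higher in the larger set, beside 349 of 11812 genes (2.95%). No other ABC member among the 25 with a mean of at least 5 CPM passed that bound. ABCF1 lies where the genome has alternate haplotype sequences, and how reads with several alignments were counted is not given in the sources used here. The antigen peptide transporters TAP1 and TAP2, ABC genes under other symbols in the same region, had 0.811, 40.9 and 41.6 CPM and 5.82, 62.8 and 63.1 CPM in A549 WT 1, 2 and 3 and were likewise low in WT 1.

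**Figure D4:**
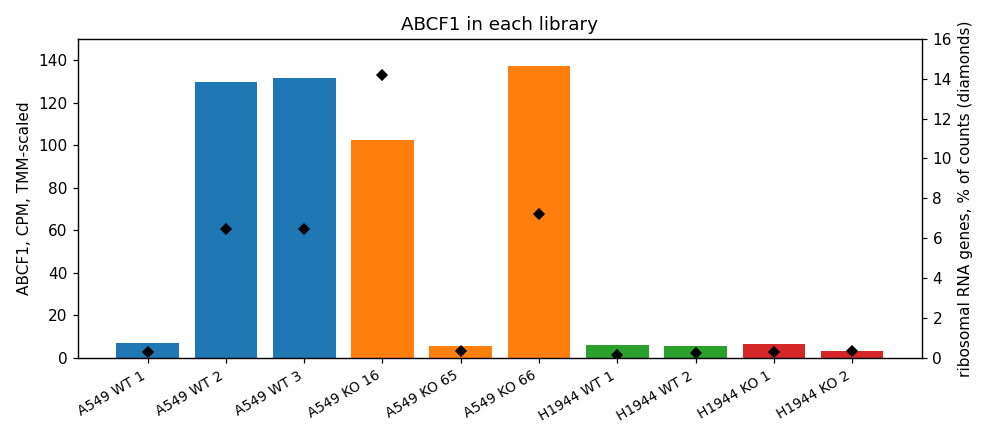
ABCF1 in CPM (bars, left axis from 0) and the percentage of counts from ribosomal RNA genes (diamonds, right axis) in each of the 10 libraries, with 1 bar per library and no error bar. The 4 libraries with 102 to 137 CPM of ABCF1 are those with 6.45% to 14.2% ribosomal RNA, and the other 6 are below 7 CPM.

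Several members lay among neighbours that moved the same way in H1944. Within 1 Mb of ABCF2, a distance chosen after the values were seen, 21 of 27 tested genes were higher in KO and 2 were lower (median log2 fold change 0.85), beside 33.2% and 33.9% of all genes. ABCB8, 183 kb away, is among them, so the rises of ABCF2 and ABCB8 share neighbours. Around ABCB9, 29 of 35 genes were lower and 3 higher (median -0.55). Around ABCB1, 6 of 8 were lower and 0 higher, and around ABCA4 12 of 17 were lower, with ABCD3 among them. Other members did not move with their neighbours. ABCA1 rose while 2 of its 8 neighbours were higher and 4 lower. ABCA5 fell while 6 of its 11 were higher and 5 lower (median 1.66), and ABCA12 fell while 2 of 3 were higher. ABCC2, ABCC3 and ABCB6 fell among neighbours with medians of 0.09, 0.17 and 0.10. The members named here were picked from the 32 tested, and agreement was not counted over all of them. The part of neighbouring genes in these results was not tested.

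**Figure D5:**
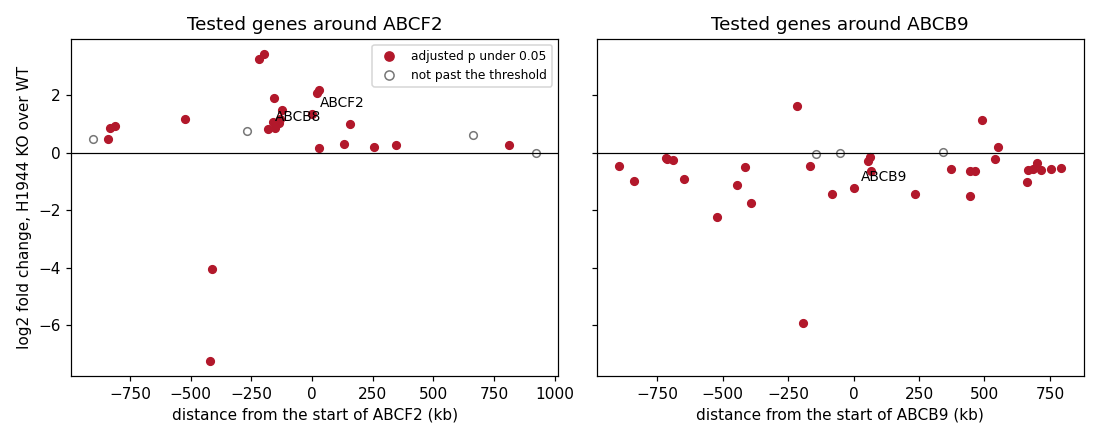
Log2 fold change of H1944 KO over WT (vertical) for tested genes within 1 Mb of ABCF2 (left) and ABCB9 (right), against distance from the gene's start in kb. Filled red points passed an adjusted p under 0.05: 21 of 27 genes around ABCF2 were higher, with ABCB8 among them, and 29 of 35 around ABCB9 were lower.

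Genes that work with ABC members were read from lists. The list counts here and below stand beside 67.1% of all genes called in H1944, 33.2% higher and 33.9% lower. In H1944 the cholesterol efflux partners had 4 higher and 4 lower of 9 tested (median -0.05). APOE, the lipid acceptor that ABCA1 loads, had 3.25 and 3.68 CPM in WT and 28.3 and 29.8 CPM in KO (log2 fold change 3.06, SE 0.113, adjusted p = 5.02e-16). NPC1 and NPC2, which release cholesterol from lysosomes, also rose (0.91 and 1.16, adjusted p = 3.02e-14 and 3.44e-14), and MYLIP, which marks the LDL receptor for breakdown, fell (-0.94, adjusted p = 3.12e-06). The list of transcriptional regulators of ABC genes had 3 higher and 9 lower of 15 tested (median -0.41). RXRA was among the 3 that rose (log2 fold change 0.52, adjusted p = 2.69e-10). NR1H4, the bile acid receptor, had 20.1 and 22.1 CPM in WT and 0.104 and 0.165 CPM in KO (log2 fold change -7.24, adjusted p = 2.73e-17). Among uptake and other efflux carriers 5 rose and 7 fell of 13, including SLC22A3, an organic cation carrier (-4.90), and SLC47A2 (-3.51). The peptide loading and class I list, partners of TAP1 and TAP2, had 9 higher and 0 lower of 13, with B2M at 1.34 and HLA-B at 1.52. TAP1 and TAP2 themselves did not pass (adjusted p = 0.713 and 0.708). TAP1 had 2.86 and 0.0933 CPM in H1944 WT and 0.902 and 0.826 CPM in KO (SE 1.59). TAP2 had 6.34 and 4.34 CPM in WT and 5.94 and 5.49 CPM in KO. Such levels are near those of A549 WT 1, which was low across this region, so the lack of a call cannot show that they did not change. CFTR, the chloride channel of the family, was at 0.14 CPM or less in H1944.

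The remaining lists were mixed in H1944. Ribosome recycling partners of ABCE1 had 2 higher and 2 lower of 7, and GCN1, which acts at stalled ribosomes, fell by 0.49 on the log2 scale. Peroxisomal oxidation, which uses the substrates of ABCD3, had 4 higher and 2 lower of 9, with HSD17B4 at -1.05 and PHYH at 0.78. The mitochondrial iron-sulfur and haem list had 4 higher and 3 lower of 8, and FECH, the last enzyme of haem synthesis, fell together with ABCB10 (-1.22, adjusted p = 5.15e-17). The surfactant and lamellar body list had 0 higher and 2 lower of 3 tested, SFTPD (-4.00) and NAPSA (-3.40).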

How the data were processed

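Poly(A) RNA-seq libraries of A549 (3 WT, 3 KO) and H1944 (2 WT, 2 KO) were used, as raw counts per gene symbol that the authors deposited in 1 table per line. Per the submitters' processing notes, the tools were Trim Galore 0.5.0, HISAT2 2.1.0, featureCounts 1.6.4 and DESeq2, with genome build hg38. The annotation, the strand setting and how multi-mapping reads were counted are not given in the sources used here. No per-sample column was left out (0 not used).

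Counts were filtered with filterByExpr (minimum count 10), scaled by TMM and tested over all genes with edgeR 4.0.16 (robust quasi-likelihood fit, R 4.3.3), with Benjamini-Hochberg adjustment and a threshold of 0.05. Standard errors (SE) are approximate, from dividing the size of the log2 change by the root of its F statistic. Differences within A549 sets are on the log2(CPM + 0.5) scale, and single A549 members also had 2-sided exact permutation tests on that scale. The sets were parted at 1% ribosomal RNA genes. DESeq2 1.42.0, limma 3.58.1, other scaling, no filter, a replicate block and leaving out libraries were alternatives. The fits were tested on simulated data. A count of 0 was read against a floor of 3 counts per library, which covers counting error only. Replicate libraries differed by more than sampling noise and were kept apart. The chi-square per gene was 1.9 between A549 WT 2 and WT 3, and 3.37 and 2.95 within H1944 WT and KO. It was 135 to 273 for the other A549 pairs of 1 genotype.

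The members and gene lists were chosen with earlier results of these data known. Named genes were APEX1, ABCC2 and ABCC3; in H1944 up to 10 called members each way by size with a mean of at least 1 CPM; A549 members with no overlap; up to 5 members each way for the difference between lines; the 5 highest members per WT line; and up to 4 genes of each other list by adjusted p. Other members named are outside that rule. Some members and other genes are not reported here, though they are in the counts. Protein sequences were not analysed here. Gene positions and promoters are from RefSeq GRCh38.p14.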

Additional observations from a re-analysis of the deposited data

Results flagged for a closer look

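The 5 members below were singled out because their knockout change differed between A549 and H1944 in a test of the difference itself. ABCA12, the skin barrier lipid transporter, had an A549 change 2.49 above the H1944 change on the log2 scale, and ABCA4, the retinoid flippase, had one 2.41 above. For ABCB9, the lysosomal peptide transporter, the difference was 1.53, and for ABCA5 it was 1.33. ABCF2, the ribosome-associated member, was the only one with a lower change in A549, at -1.60. In each case the H1944 change was the one that passed the test in its own line. The A549 test called only 0.00633% of all genes and did not call APEX1 (adjusted p = 0.521), so that alone does not set the lines apart. The calls of ABCA12, ABCA4, ABCB9 and ABCA5 were lost in at least 1 leave-one-out fit, while ABCF2 stayed called in all 10 such fits (adjusted p at most 0.0419).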

How the results depend on the processing

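In H1944, 1 fit of all 10 libraries gave 2 members higher and 5 lower, beside 14.3% of all genes called. Leave-one-out fits there leave 1 library in a group, so their counts of members are not given. The labels do not say whether the H1944 replicate numbers pair the libraries. Deviations of the number 1 libraries from their group means correlated at 0.0211. With 2 libraries per group, number 2 repeats this value by construction, so it cannot settle the pairing. With the replicate block 23 members were called (71.9%, beside 67.5% of all genes), without ABCC11 (adjusted p = 0.0661) and ABCG1 (adjusted p = 0.0503). The A549 KO columns share no number with the WT libraries, so A549 could not be paired. In A549, DESeq2 called 1 member lower, beside 0.791% of all genes called, and gave APEX1 a log2 fold change of -1.55 (adjusted p = 0.00146). For the difference between lines, members higher numbered 2 with no low-count filter and members lower numbered 3 with DESeq2. With the library set as a term, 7 were higher and 3 lower. Leave-one-out fits gave 0 to 5 higher and 1 to 3 lower. For A549 WT against H1944 WT, 16 members were higher and 15 lower with the larger set alone (beside 83.3% of all genes called), and 17 and 14 with the A549 WT library of the smaller set alone (72.6%), an alternative chosen after seeing the data. Leave-one-out fits gave 2 to 16 higher and 2 to 15 lower. The causes were not tested.

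Directions turned only for members and relatives without a call. In H1944 the leave-one-out ranges were -0.20 to 0.075 for ABCA2, -0.17 to 0.12 for ABCA3, -0.30 to 0.10 for ABCC6, -0.86 to 0.19 for ABCF1, -1.73 to 3.14 for TAP1 and -0.16 to 0.38 for TAP2, and limma-voom gave TAP1 0.53. In A549 the range was -0.43 to 1.95 for ABCA1. The 2 H1944 libraries per group and the A549 sets limit precision.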
